A study of Mus musculus with 108 samples.

Results

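Single acinar cells, which make and secrete the digestive enzymes of the pancreas, were ordered by how much of their transcriptome came from ribosomal protein genes. The 27 cells with the highest share were set against the 27 with the lowest, with 54 cells left between them, which together are all cells of the series. They are called rich cells, poor cells and middle cells here. The share was the summed TPM (a level relative to the whole transcriptome and already divided by transcript length) of 91 protein-coding genes named Rpl, Rps or Rplp with a number, kinases of the Rps6k family left out, divided by the total of the cell. The ranking is a measured value, so the levels of those 91 genes in the groups are given as a description only. All other genes were not part of the rule, although they share with it the total by which each cell was divided.

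All cells came from untreated male C57BL/6 mice aged 12 weeks, and each sample was a single cell. The pancreas was digested with collagenase, strained to remove islets and dissociated with Accutase, and cDNA was made by a modified SMART-seq2 protocol, which copies polyadenylated RNA and carries no molecular identifiers. The labels give a single group and tell nothing of the animal, plate or day of a cell. All cells therefore counted as 1 sample, no test was possible, and every difference below is a description of these cells without a p-value, with the spread between cells in place of an error.

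Ribosomes are built from ribosomal RNA and a large family of ribosomal proteins, which make up a small and a large subunit. The mRNAs of these proteins, and of several translation factors, begin with a tract of pyrimidines and are known as TOP mRNAs (5′ terminal oligopyrimidine). Their translation and stability are controlled together, through the kinase complex mTORC1 and the RNA-binding protein LARP1. Acinar cells hold a very dense rough endoplasmic reticulum and are known for a high rate of protein synthesis.

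Ribosomal protein genes took between 1.34% and 2.03% of the TPM of the rich cells, with a median of 1.47%. In the poor cells they took between 0.617% and 0.991%, with a median of 0.921%. The 54 cells between the groups had a median of 1.19%, and over all cells the mean was 1.199% ± 0.267 (SD over all cells). The values ran on without a step at either edge of the groups. Cell 40, the last rich cell, held 1.343%, against 1.338% in the next cell outside, and cell 56 held 0.991% as the first poor cell, against 0.997% in the last cell outside. Within the rich group, 6 cells lay between 1.74% and 2.03%, and the next cell below them lay at 1.53%.

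**Figure D1:**
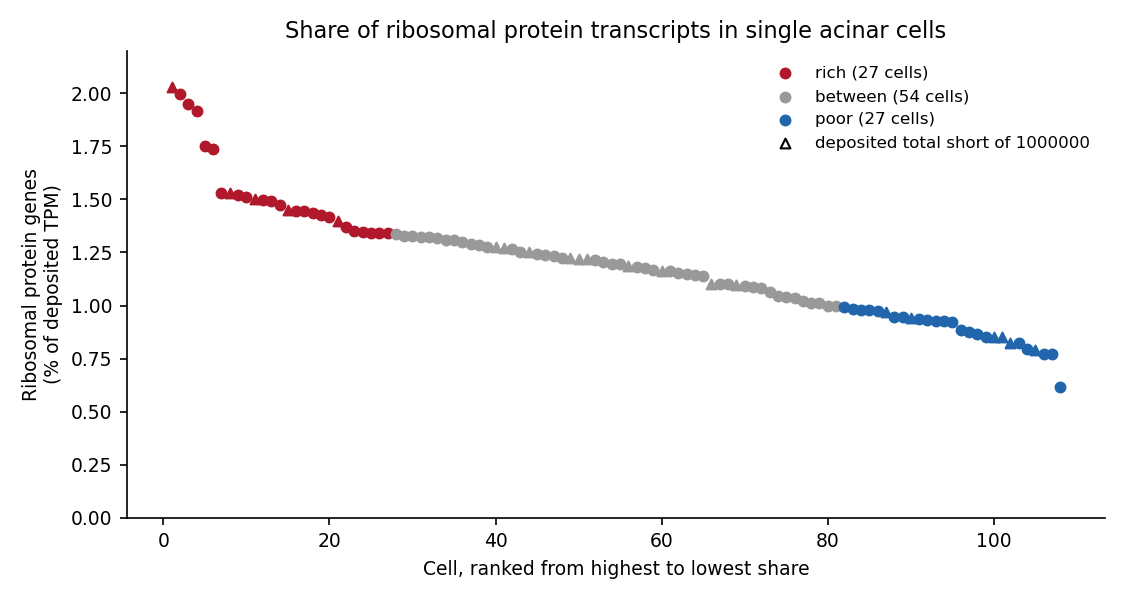
Share of the deposited TPM taken by the 91 ribosomal protein genes (y axis, percent) in each cell ranked from highest to lowest (x axis), coloured by group, with triangles for cells whose deposited TPM fall short of 1000000. The 27 rich cells span 1.34% to 2.03% and the 27 poor cells 0.617% to 0.991%, and triangles occur in both groups.

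Rich and poor cells were alike in some features of the libraries and differed modestly in others. Genes at or above 1 TPM numbered 2983 to 6946 in rich cells, with a median of 4306, and 2624 to 5201 in poor cells, with a median of 4090. Digestive enzymes (36 measured trypsinogens, elastases, carboxypeptidases, amylases, nucleases and lipases) took a median of 83.7% of the TPM in rich cells and 84.8% in poor cells. The Spearman correlation between the enzyme share and the ribosomal share was -0.29 over all cells. Since both are shares of 1 total, this correlation is partly built in. The deposited TPM of 21 cells, those numbered from 92 upwards, fell short of 1000000 by more than rounding, and 5 of these short-total cells were rich and 6 poor. Of the 47 cells numbered 1 to 48, 14 were rich and 7 poor, and of the 40 cells numbered 49 to 91, 8 were rich and 14 poor. The part of these features in the differences below was not tested beyond the values given within each set of cells.

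The cells of both groups carried the acinar identity of their label. All 10 acinar markers were detected, and at least 3 of them in each of 27 rich and 27 poor cells. Their summed level lay between 302996 and 414352 TPM in rich cells and between 338638 and 424650 TPM in poor cells. Of 14 endocrine markers, at most 1 reached 1 TPM in any rich cell and at most 2 in any poor cell, and Sst, Ppy, Pyy and Neurod1 were listed at 0 in every cell. The 13 macrophage markers summed to at most 3.6 TPM in rich cells and 6.02 TPM in poor cells, and the 13 lymphocyte markers to at most 6.92 TPM and 1.39 TPM. Endothelial markers reached 85 TPM in 1 rich cell, cell 40, where 9 of the 11 were detected and which had the most detected genes of the rich cells, 6946. In poor cells they reached at most 2.80 TPM, with at most 1 marker in a cell. Ductal markers were found in nearly every cell, with at least 3 of 14 in 26 rich and 27 poor cells, and summed to 125 to 753 TPM in rich cells (median 245) and 144 to 565 TPM in poor cells (median 209). Adipocyte markers reached 51.4 TPM in rich cells, with 1 of 6 markers detected, and were at 0 in poor cells. Stellate and fibroblast markers reached 28.6 TPM in rich cells and 25.6 TPM in poor cells, with at least 3 of the 13 markers in 1 cell of each group. Mki67 and Top2a, genes of dividing cells, were each detected in 2 of 27 rich cells and in 0 of 27 poor cells, a count that leaves room for a share of 12.8% (upper bound of the exact 95% interval, counting error only).

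Within the ribosomal protein family the difference was shared by nearly every member. Of the 91 genes, 84 passed the filter of at least 1 TPM in at least 54 cells, and 79 were detected in every cell. The 7 that did not pass were the tissue-restricted paralogs Rpl3l, Rpl10l and Rpl39l and the copies Rpl9-ps1, Rpl9-ps6, Rpl36-ps4 and Rpl36a-ps1. Of the 84, 78 (92.9%) were higher in rich cells by at least 1.5-fold on log2(median TPM + 1), and all had a difference above 0. The median difference was 0.72 for 50 genes named for the large subunit and 0.78 for 34 genes named for the small subunit on the log2 scale. Taken by name, the 84 include the copies Rpl10-ps3 and Rps12-ps3 as well as Rps27rt, Rps19bp1 and Rpl7l1. These values follow from the ranking and say how evenly the members contributed to it.

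Rpl32, a protein of the large subunit, had 440 to 1151 TPM in rich cells (median 574) and 135 to 421 TPM in poor cells (median 337), and the groups did not overlap. Rplp1, a protein of the stalk that recruits translation factors, had 381 to 814 TPM in rich cells (median 484) and 187 to 421 TPM in poor cells (median 302). Rpl13 had 240 to 560 TPM in rich cells (median 373) and 136 to 352 TPM in poor cells (median 227). The ranges of Rplp1 and Rpl13 overlapped slightly. In 8 of the 84 genes (9.52%) no poor cell reached any rich cell, among them Rpl9, Rpl26, Rpl32, Rpl37a, Rps6, Rps14 and Rps27a. Rpl41, the shortest ribosomal protein, had the highest mean of the family, with a median of 721 TPM in rich cells and 427 TPM in poor cells.

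At the upper end, Rps15a had a median of 82.6 TPM in rich cells and 38.1 TPM in poor cells (log2 difference 1.09), and Rpl39 had 85.5 TPM and 39.8 TPM (1.08). Rps12 had a larger log2 difference, 1.87, from medians of 11 and 2.29 TPM, but a rich cell exceeded a poor cell in only 57.8% of the 729 possible pairs of a rich and a poor cell. It was detected in 67 cells and has near-identical copies elsewhere in the genome, so its separate value is uncertain. Its difference was -0.18 within cells 1 to 48 and -1.22 within the short-total cells. The smallest differences belonged to Rpl7l1, a ribosome biogenesis factor with a ribosomal protein's name, at 2.55 TPM in rich cells and 2.20 TPM in poor cells, to Rpl4, at 191 and 151 TPM, and to Rpl3, at 127 and 90.6 TPM. Rpl4 and Rpl3 had log2 differences of 0.34 and 0.48, yet a rich cell exceeded a poor cell in 92.5% and 94.4% of pairs.

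The ranking and the reading were also done with different genes of the family. With cells ranked on 46 of the genes, taken alternately from the alphabet, the 40 tested genes among the remaining 45 had a median log2 difference of 0.75, and 34 of them were higher by at least 1.5-fold. With the roles exchanged, the median was 0.74, and 43 of 44 tested genes were higher. The shares given by these sets of genes had a Spearman correlation of 0.99 over all cells. The other tested genes had medians of 0.13 and 0.15 under these rankings. Both sets are genes of the rule and share the total of each cell as the divisor. Copies and the genes they resemble, such as Rpl10-ps3 and Rpl10, fell in different sets. The sets are therefore not independent readings.

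Outside the family, the background of the comparison has to be given first, because it was not centred on 0. Of all 3730 tested genes, 357 (9.57%) were higher in rich cells by at least 1.5-fold and 27 (0.724%) were lower, the ribosomal protein genes included. Of 30 copies of ribosomal protein genes, most of them pseudogenes, 23 (76.7%) were higher, and their reads cannot be told apart with certainty from those of the genes they resemble. Of 3616 tested genes that were neither ribosomal protein genes nor their copies, 256 (7.08%) were higher in rich cells by at least 1.5-fold and 27 (0.747%) were lower. Their median log2 difference was 0.17, and 74.5% lay above 0. This tilt depended on the scaling. Higher genes made up 90.5% of the calls with the deposited TPM, 70.5% (110 higher, 46 lower) with TPM rescaled to a total without the digestive enzymes, 78.9% (142 higher, 38 lower) without enzymes and ribosomal protein genes, and 45.4% (64 higher, 77 lower) with median-of-ratios scaling, where the median was -0.05. The count of genes higher in rich cells is thus tied to the scale, and single genes and lists are read below against the background median of 0.17. Counts of list members past 1.5-fold stand beside the background shares of 7.08% higher and 0.747% lower.

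A stricter description asked in how many of the 729 pairs the rich cell was higher. At least 90% of pairs went that way for 14 of 3616 genes (0.387%). They did so for 75 of 84 ribosomal protein genes (89.3%), which set the ranking. For 0 of 3616 genes the poor cell was higher in at least 90% of pairs. The 14 genes included Rpsa, Fau, Rack1, Eef1b2, Naca, Btf3, Tpt1, Nme2, Hint1, Nop10, the copies Gm9843 (of Fau) and Tpt1-ps3 (of Tpt1), and the noncoding RNA Gm26619. Btf3, Hint1, Nop10 and Gm26619 were picked out by this count after their values were seen, and Nop10 also by its list.

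Of these, Rpsa, Fau and Rack1 encode proteins of the ribosome itself whose names the rule does not match. Rpsa, a protein of the small subunit, had 85.6 to 164 TPM in rich cells (median 105.03) and 43.7 to 85.9 TPM in poor cells (median 67.3). A rich cell exceeded a poor cell in 99.9% of pairs, and the groups touched only at their edges. Fau, the precursor of the small-subunit protein RPS30, had 76.1 to 168 TPM in rich cells (median 112) and 21.7 to 83.8 TPM in poor cells (median 57.7), and its log2 difference of 0.94 was the highest of the 3. Rack1, a scaffold protein bound to the small subunit, had 57.4 to 151 TPM in rich cells (median 86.3) and 23.1 to 70.3 TPM in poor cells (median 49.9). These genes thus showed differences of the size seen in the ribosomal protein family.

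The start regions of a few of these genes are shown because TOP mRNAs are defined by the pyrimidines at their beginning. Each sequence runs from 50 bases before to 50 bases after the start of the gene in RefSeq (build GRCm38.p6), on the transcribed strand, and capitals mark each run of at least 8 C or T bases. The set gives ribosomal proteins from the markers and from the largest differences, 2 ribosomal genes outside the rule that have such a run, and Rpsa and Eef1b2, which have none in this window. Tpt1 and Naca have none in it either and are not printed. Rpl32 and Rplp1 are named only.
Rpl13 (chr8:123102300-123102399, plus strand): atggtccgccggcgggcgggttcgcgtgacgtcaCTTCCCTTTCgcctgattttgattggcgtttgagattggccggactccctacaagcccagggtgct
Rps15a (chr7:118116098-118116197, minus strand): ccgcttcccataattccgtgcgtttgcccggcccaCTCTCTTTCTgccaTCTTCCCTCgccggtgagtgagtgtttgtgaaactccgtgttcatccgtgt
Rpl39 (chrX:37085173-37085272, minus strand): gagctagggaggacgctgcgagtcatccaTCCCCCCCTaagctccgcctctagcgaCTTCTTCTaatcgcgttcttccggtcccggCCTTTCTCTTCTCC
Fau (chr19:6057897-6057996, plus strand): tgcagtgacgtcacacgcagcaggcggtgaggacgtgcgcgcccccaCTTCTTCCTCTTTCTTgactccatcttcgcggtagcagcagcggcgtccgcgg
Rack1 (chr11:48800310-48800409, plus strand): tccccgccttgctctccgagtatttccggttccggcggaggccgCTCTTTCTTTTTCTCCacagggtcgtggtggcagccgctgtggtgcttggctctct
Rpsa (chr9:120127716-120127815, plus strand): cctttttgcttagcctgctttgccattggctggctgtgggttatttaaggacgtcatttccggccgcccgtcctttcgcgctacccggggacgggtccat
Eef1b2 (chr1:63176781-63176880, plus strand): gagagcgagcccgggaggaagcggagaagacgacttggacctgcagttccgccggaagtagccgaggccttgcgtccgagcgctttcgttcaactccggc

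A run of at least 8 pyrimidines (C or T) on the transcribed strand lay in this window in 53 of the 65 ribosomal protein genes that had an entry (81.5%). It lay in 39.3% of all 27025 genes in the RefSeq table and in 34.2% of the 2869 tested genes with an entry outside the family and its copies. Among the 14 genes above, 4 of 9 with an entry held a run (44.4%). With either strand read, the shares were 87.7% for ribosomal protein genes, 66.7% for the 14, 65.3% for all genes and 59.6% for the other tested genes. Such a run is a match of letters in a window around an annotated start, and it does not show where transcription began in these cells.

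Eef1b2, the exchange factor that reloads the elongation factor eEF1A with GTP, had 95.4 to 203 TPM in rich cells (median 133) and 38.6 to 94.7 TPM in poor cells (median 78.8). It was the only 1 of 3616 genes (0.0277%) in which no poor cell reached any rich cell. Naca, the alpha subunit of the nascent polypeptide-associated complex, which meets new chains at the ribosome, had 40.6 to 73.2 TPM in rich cells (median 52.6) and 20.6 to 45.4 TPM in poor cells (median 31.5). Btf3, the beta subunit of the same complex, had medians of 32.1 TPM in rich cells and 20.0 TPM in poor cells. Both subunits were thus higher, by log2 differences of 0.72 and 0.66.

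Tpt1, the translationally controlled tumour protein and a classic TOP mRNA, had 204 to 511 TPM in rich cells (median 346) and 102.14 to 257 TPM in poor cells (median 196). Its copy Tpt1-ps3 had medians of 201 and 113.42 TPM, and Gm9843, a copy of Fau, 77.5 and 45.5 TPM. Reads of a gene and its copy cannot be told apart with certainty, but gene and copy differed in the same direction in each pair. Nme2, a nucleoside diphosphate kinase, had medians of 100.2 TPM in rich cells and 65.6 TPM in poor cells. Hint1, a nucleotide hydrolase, had 39.8 and 24.3 TPM, and Nop10, a small protein of the snoRNPs that modify ribosomal RNA, 8.33 and 4.80 TPM. Gm26619 had 6.45 TPM in rich cells and 3.58 TPM in poor cells.

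The cells between the groups, which the comparison of rich and poor cells did not use, fell between them. Eef1b2 had a median of 110 TPM, Rpsa of 89.4 TPM, Naca of 42.4 TPM and Tpt1 of 245 TPM in the 54 middle cells. Over those 54 cells alone the Spearman correlation with the ribosomal share was 0.53 for Eef1b2, 0.50 for Rpsa, 0.39 for Naca, and 0.36 for both Tpt1 and Rack1. The median over the ribosomal protein genes, which make up the share, was 0.43 and that over the 3616 other genes -0.02. For Fau and Btf3 it was 0.23 and 0.08. Over all cells the correlation was 0.83 for Rpsa, 0.80 for Naca, 0.79 for Eef1b2 and 0.73 for Tpt1. All points share the total of their cell as the divisor, and none of these correlations is a test. Eef1b2, Rpsa, Naca, Tpt1, Rack1 and Fau were among the 10 highest correlations over all cells, which include the middle cells. Their values in the middle cells are therefore not a separate check.

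**Figure D2:**
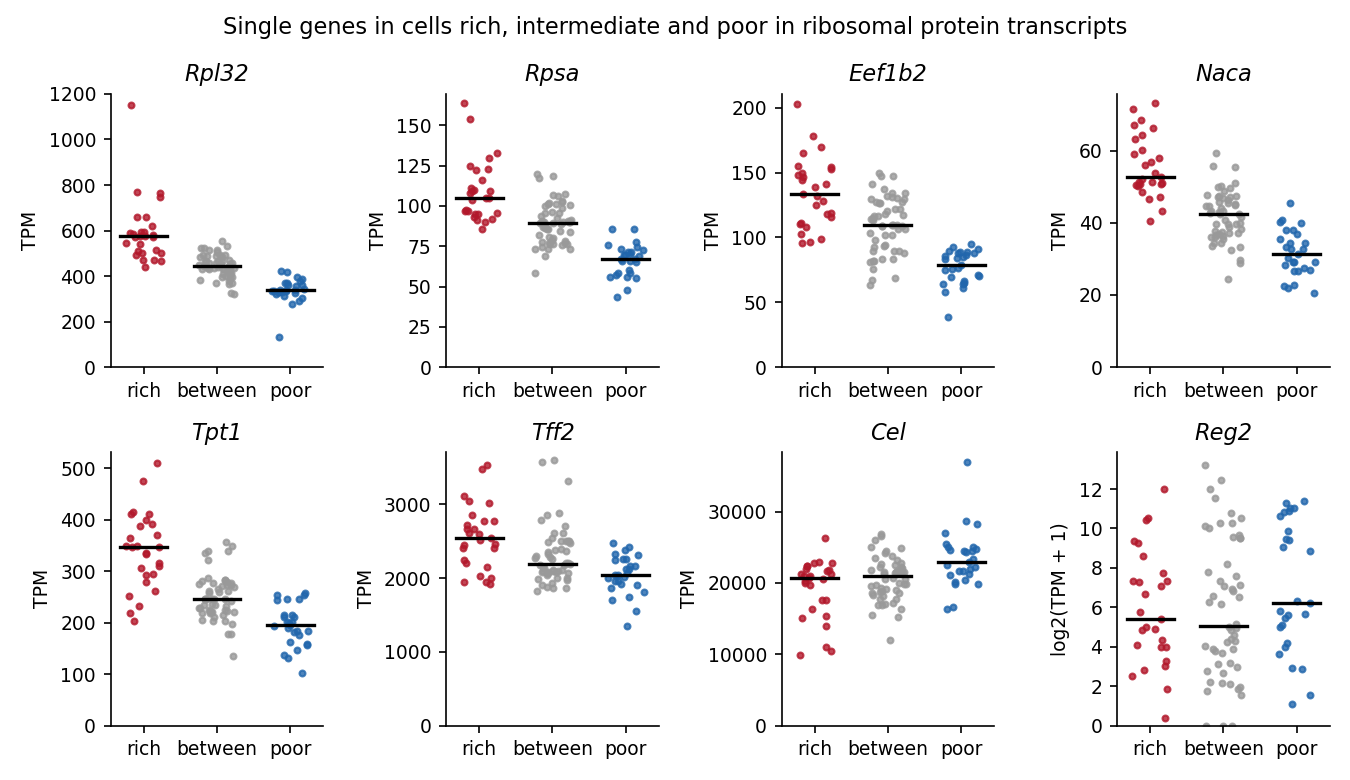
Level of 8 genes in each cell (y axes, TPM, and log2(TPM + 1) for Reg2), with cells grouped as rich (27), between (54) and poor (27) and a black bar at the median. Rpl32 and Eef1b2 do not overlap between rich and poor cells, Rpsa, Naca, Tpt1 and Tff2 overlap at the edges or partly, Cel is slightly lower in rich cells, and Reg2 spreads over the whole range in each group.

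The TOP mRNAs outside the ribosomal protein family had a median difference between rich and poor cells near that of the family. Of 14 tested members, 9 were higher in rich cells by at least 1.5-fold, 0 were lower, and the median log2 difference was 0.68, against 0.17 over the background. The list had a median Spearman correlation with the ribosomal share of 0.43 over all cells and of 0.0087 over the 54 middle cells. The middle-cell values of Eef1b2, Rpsa, Naca, Tpt1 and Rack1 given above therefore do not describe the list. The large and small subunits had 0.75 and 0.79 over all cells and 0.43 and 0.45 over the middle cells. Their genes make up the share itself, which raises these values, so they are no yardstick for the list. The higher members included Fau, Tpt1, Gas5, Rack1, Naca, Nop53, Btf3 and Npm1. Npm1, the nucleolar chaperone nucleophosmin, had 24.0 TPM in rich cells and 15.1 TPM in poor cells, and Nop53, a factor of large-subunit maturation, 5.31 and 2.86 TPM. With cells ranked by the share outside the enzymes, the log2 difference of Nop53 was -0.097. Gas5, a noncoding TOP transcript that hosts snoRNAs, had a median of 38.5 TPM in rich cells and 21.6 TPM in poor cells, with 83.3% of pairs higher. The members that did not differ so were Tmem97, at 102.1 TPM in rich cells and 112.4 TPM in poor cells, Ybx1, at 16.04 and 14.04 TPM, and Hnrnpa1, Nap1l1 and Cct3. Among cells numbered 1 to 48, 49 to 91 and from 92 upwards the median of the list was 0.65, 0.58 and 0.65.

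Translation factors as a whole showed smaller differences. Of 10 elongation factor genes, 1 (Eef1b2) was higher by at least 1.5-fold, 0 were lower, and the median log2 difference was 0.42. Eef1a1, which carries aminoacyl-tRNA to the ribosome, had 343 to 858 TPM in rich cells (median 538) and 245 to 603 TPM in poor cells (median 392), a difference of 0.46, and 87.8% of pairs were higher. Eef2, the translocation factor, had medians of 67.9 and 50.5 TPM, a difference of 0.42. Of 36 initiation factor genes, 3 were higher, a share near the 7.08% of the background, 0 were lower, and the median was 0.33. Eif3e, a subunit of the scaffold complex eIF3, had 11.5 TPM in rich cells and 6.57 TPM in poor cells. Eif3k had 46.4 and 32.5 TPM, and Eif1, a factor of start codon selection, 106.21 and 72.4 TPM. With the total taken without the digestive enzymes, the median of the initiation factors was 0.09 and that of the background 0.04, so the excess of this list over the background was 0.05 on that scale.

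Genes that build ribosomes lay at the background as a list. Of 22 tested ribosome biogenesis genes, 2 were higher, 0 were lower, and the median log2 difference was 0.14, close to the background of 0.17. Polr1d, a subunit shared by RNA polymerases I and III, had 18.5 TPM in rich cells and 13.6 TPM in poor cells, and Myc, which drives ribosome synthesis in many cells, 3.13 and 2.27 TPM. Of 9 snoRNA host genes, 3 were higher (Snhg8, Snhg6 and Gas5), and the median was 0.48. Snhg8 had 4.84 TPM in rich cells and 1.57 TPM in poor cells, and Snhg6 3.83 and 1.29 TPM, each with values from 0 upwards in both groups. Of 14 genes of mTORC1 and its regulators, 0 were higher or lower by 1.5-fold, and the median was 0.08. In that list Rraga, a small GTPase that brings mTORC1 to lysosomes, had 5.13 TPM in rich cells and 3.22 TPM in poor cells, and the S6 kinase gene Rps6kb2 1.45 and 2.20 TPM. Eif4ebp1, the mTORC1-controlled inhibitor of initiation, had 31.8 and 24.8 TPM.

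The nuclear genes of the respiratory chain were tilted upwards as a list. Of 77 tested members, 5 were higher by at least 1.5-fold, a share no larger than the 7.08% of the background, 0 were lower, 73 lay above 0, and 59 lay above the background median. The median log2 difference was 0.35. Ndufc1, a subunit of complex I, had 44.5 TPM in rich cells and 25.9 TPM in poor cells. Atp5g1, a subunit of the ATP synthase ring, had 112.75 and 80.9 TPM, and Cox8a, a subunit of cytochrome c oxidase, 65.5 and 44.7 TPM. Ndufa1 differed little, at 108.38 TPM in rich cells and 95.4 TPM in poor cells. In the 54 middle cells the Spearman correlation with the ribosomal share was 0.42 for Cox8a and 0.44 for Cox4i1, genes picked for these values. The excess of the list median over the background was 0.18 on the deposited scale, 0.12 with median-of-ratios scaling and 0.06 with cells ranked by the ribosomal share of the TPM outside the enzymes.

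Mitochondrial ribosomal proteins form a separate ribosome inside mitochondria and were not in the rule. Of 65 tested members, 5 were higher, a share near the 7.08% of the background, and 0 were lower. Their median log2 difference was 0.34. Mrpl55 had 5.92 TPM in rich cells and 3.11 TPM in poor cells, and Mrps21 38.5 and 33.2 TPM. The excess over the background median was 0.16, and it was 0.02 within cells 49 to 91 and -0.05 within the 21 cells of short total. Of 31 proteasome subunits, 2 were higher, also near the background share, 0 were lower, and the median was 0.28. Psmb4 had 12.6 TPM in rich cells and 7.72 TPM in poor cells, and Psmb5 20.6 and 14.6 TPM.

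Transcript length moved with these differences. The genes outside the family and its copies were put in 5 bins of equal size by length. The bin with the shortest transcripts (135 to 682 bases) had a median log2 difference of 0.24 and 13.5% of genes higher by 1.5-fold. The bin with the longest transcripts (1727 to 7328 bases) had a median of 0.12 and 2.78% higher. The medians of the 3 bins between them were 0.17, 0.18 and 0.17. Ribosomal protein genes have short transcripts, with a median of 628 bases, against 896 bases for the other tested genes. Among the 1636 other genes no longer than 90% of the ribosomal protein genes, the median was 0.19 and 9.84% were higher. The medians of 0.72 and 0.78 for the large and small subunits follow from the ranking. A comparison with them therefore says nothing about length. The part of length in the differences of single lists was not tested.

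**Figure D3:**
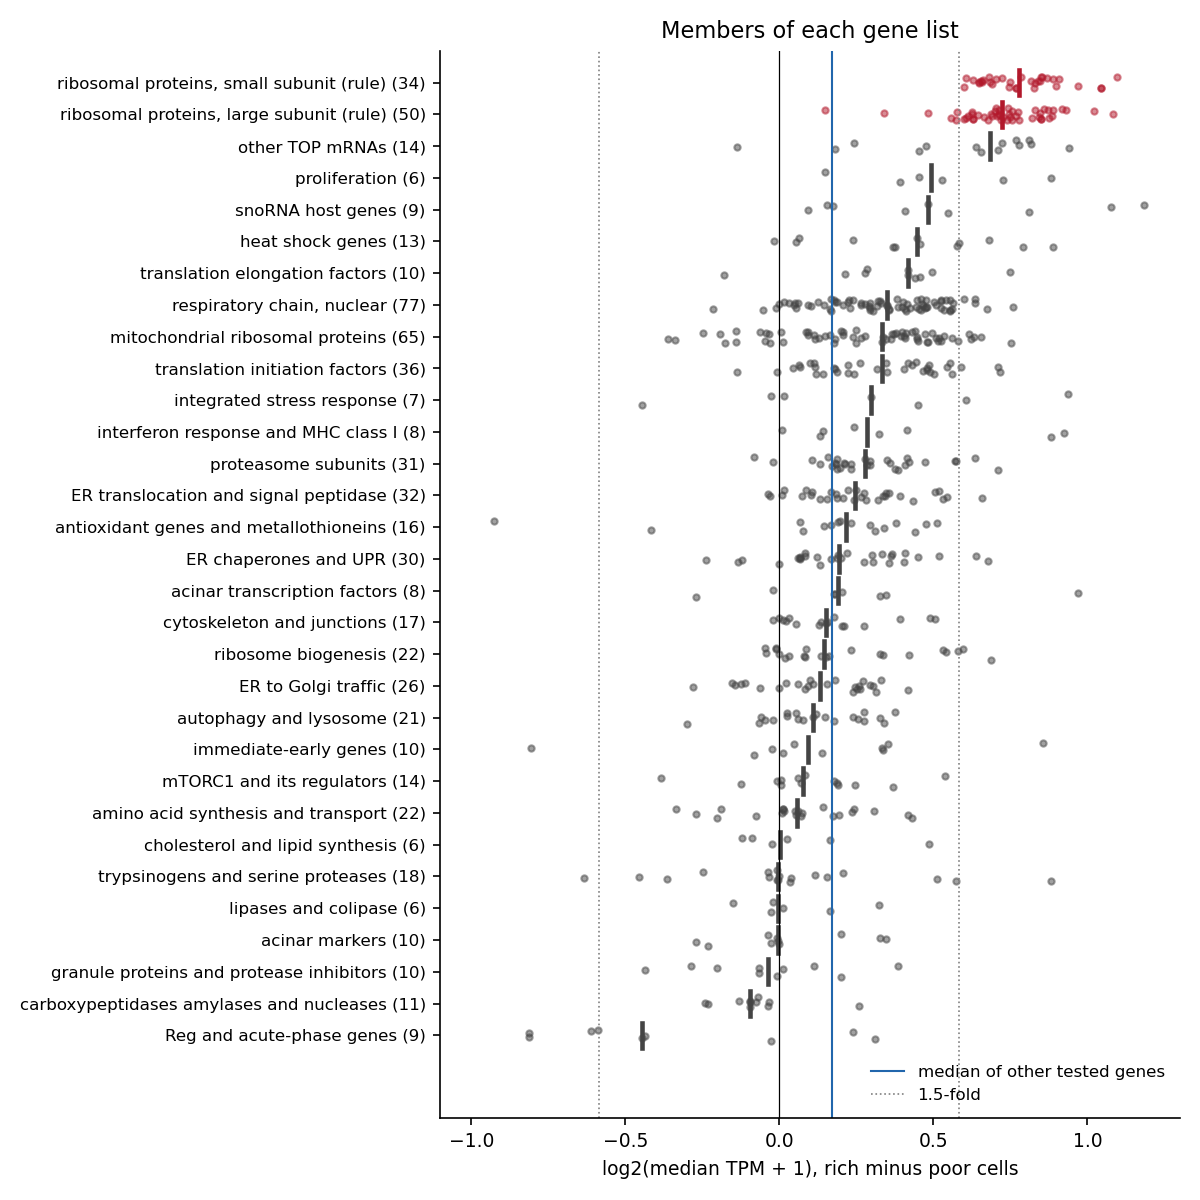
Difference of log2(median TPM + 1) between rich and poor cells (x axis) for each tested member (points) of each list with at least 5 tested members, with the number in parentheses and a bar at the list median. The ribosomal protein lists that the ranking used are in red, the other TOP mRNAs follow at 0.68, the blue line marks the background median of 0.17, and Rps12 at 1.87 lies outside the axis.

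The digestive enzymes, which fill most of the transcriptome, differed little between the groups on the deposited scale and so lay below the background. Of 18 tested trypsinogens and serine proteases, 1 was higher and 1 lower by at least 1.5-fold, and the median log2 difference was 0.00. Prss2, an anionic trypsinogen, had a median of 100000 TPM in rich cells and 100210 TPM in poor cells, and Ctrb1, a chymotrypsinogen, 97618 and 98091 TPM. Of 6 lipase genes, 0 were higher or lower, and Pnlip, the pancreatic lipase, had 37140 TPM in rich cells and 37799 TPM in poor cells. Its cofactor Clps had 67030 and 66475 TPM. Of 11 carboxypeptidases, amylases and nucleases, 0 passed 1.5-fold, 10 lay below 0, and the median was -0.10. Amy2a1, an amylase with near-identical copies, had 74495 TPM in rich cells and 87356 TPM in poor cells, with 33.5% of pairs higher, and Rnase1 had 24104 and 26398 TPM. Against the background median, the trypsinogens and serine proteases lay at -0.17, the carboxypeptidases, amylases and nucleases at -0.27 and the lipases at -0.17, and the respiratory chain lay at 0.18. With cells ranked by the share outside the enzymes these gaps were -0.071, -0.076 and 0.038. With median-of-ratios scaling the medians themselves were -0.24, -0.42 and -0.32.

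The genes whose correlation with the ribosomal share was lowest among those with a median of at least 10 TPM belonged mostly to the secretory product. Dmbt1, a secreted mucin-like protein, had 96.96 to 441 TPM in rich cells (median 281) and 182 to 491 TPM in poor cells (median 342), and its correlation was -0.38 over all cells and -0.37 over the 54 middle cells. Cel, the bile salt-activated lipase, had 9941 to 26359 TPM in rich cells (median 20636) and 16301 to 37008 TPM in poor cells (median 22885), with 23.7% of pairs higher. Cpb1, a carboxypeptidase, had medians of 10194 and 10688 TPM, and Try4, a trypsinogen, 36505 and 43312 TPM. Gm43305 had 46.3 TPM in rich cells and 67.1 TPM in poor cells. None of Dmbt1, Cel, Cpb1 and Try4 reached 1.5-fold, and their groups overlapped over most of the range.

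Not every secreted product followed the medians of the enzyme lists. Tff2, a secreted trefoil peptide, had 1922 to 3530 TPM in rich cells (median 2541) and 1350 to 2476 TPM in poor cells (median 2047). Its correlation with the ribosomal share was 0.54 over all cells and 0.45 in the middle cells, and 83.5% of pairs were higher. Spink1, the trypsin inhibitor of the granule, had medians of 3001 and 2298 TPM, and Pla2g1b, the pancreatic phospholipase, 3216 and 2569 TPM. Pla2g1b is itself one of the 6 lipase genes above, and its log2 difference of 0.32 was the largest of that list. Sycn, a granule membrane protein, ran the other way at 22379 TPM in rich cells and 25719 TPM in poor cells. Of 10 granule proteins and inhibitors, 0 passed 1.5-fold, and the median was -0.04.

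The machinery of the endoplasmic reticulum lay near the background. Of 32 genes of translocation and signal peptidase, 1 was higher, 0 were lower, and the median log2 difference was 0.24. The member that was higher was Sec61b, the beta subunit of the translocation channel, with 88.4 to 276 TPM in rich cells (median 156) and 41.7 to 159 TPM in poor cells (median 98.5). Ssr4, a subunit of the translocon-associated protein complex, had 183 and 151 TPM. Of 30 chaperones and genes of the unfolded protein response, 2 were higher, 0 were lower, and the median was 0.19. Pdia2, the pancreas-specific disulfide isomerase, had 952 TPM in rich cells and 910 TPM in poor cells, and Ppib 193 and 165 TPM. Of 26 genes of traffic to the Golgi, 0 passed 1.5-fold, and the median was 0.13.

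Acinar transcription factors gave no common direction beyond the background, with 1 of 8 higher, 0 lower and a median of 0.19. Ptf1a had 12.1 TPM in rich cells and 9.29 TPM in poor cells, Bhlha15 13.8 and 10.8 TPM, Xbp1 60.6 and 61.5 TPM, and Rbpjl, the partner of Ptf1a, 29.1 and 35.3 TPM. Nr0b2 was the member past 1.5-fold, at 5.03 TPM in rich cells and 2.08 TPM in poor cells. With cells ranked by the share outside the enzymes, its log2 difference was -0.17. Ptf1a, Bhlha15 and Xbp1 were higher in 55.97%, 59.7% and 45.2% of pairs, so rich and poor cells overlapped almost fully in these genes.

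Of the 15 genes with the largest positive differences and a median of at least 10 TPM, Fau, Tpt1, Tpt1-ps3 and Gas5 are described above. Hspe1, the mitochondrial co-chaperonin, had 9.81 to 48.3 TPM in rich cells (median 18.2) and 5.99 to 61.9 TPM in poor cells (median 9.38), with 87.7% of pairs higher. Gm12481 had medians of 66.9 and 37.7 TPM with 82.4%. It is a copy of Serf2, and its reads cannot be told apart with certainty from those of that gene. Between 70.6% and 78.3% of pairs were higher for Ifitm3, Banf1, 1110008P14Rik, Dpm3 and Hspb1. Ifitm3, an interferon-induced membrane protein, had 31.2 TPM in rich cells and 15.95 TPM in poor cells. For Snord118, Prss1, Gm21738 and Fos the pairs were 65.2%, 59.9%, 55.1% and 47.2%, so a difference of medians there did not describe most cells. Snord118, a snoRNA, had a median of 153 TPM in rich cells and was listed at 0 at the median of poor cells, where single cells reached 1254 TPM. Fos, an immediate-early gene, had medians of 33.01 and 17.8 TPM and ranges from 0 to 264 TPM in rich cells and 0 to 296 TPM in poor cells. The log2 difference of Fos was negative under 8 other settings, that of Gm21738 and of Dpm3 under 2 each, that of Snord118 within cells 1 to 48 and that of Prss1 within the short-total cells.

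Of the 27 genes lower in rich cells, 4 belonged to the Reg family, secreted lectins that acinar cells make in injury. Of 9 Reg and acute-phase genes, 0 were higher, 4 were lower (Reg2, Reg3a, Reg3b and Reg3d), and the median log2 difference was -0.45. Reg2, a secreted lectin of the regenerating family, had 0.33 to 4099 TPM in rich cells (median 41.4) and 1.14 to 2672 TPM in poor cells (median 73.6), and only 39.4% of pairs were higher in the rich cell. Reg1 had medians of 12295 and 16629 TPM, Reg3d 184 and 282 TPM, Reg3b 30.0 and 45.7 TPM, and Reg3a 3.73 and 7.31 TPM. The median of the list was 0.13 within cells 1 to 48, -0.23 within cells 49 to 91 and 0.02 within the short-total cells. Reg3a was higher in rich cells within cells 1 to 48, Reg3b within the short-total cells and Reg3d within cells 49 to 91 and the short-total cells. Against the background median of each of these sets, the list lay at -0.014, -0.39 and -0.10. It was thus close to the background within cells 1 to 48 and below it within the other sets. The level of single Reg genes varied over orders of magnitude within each group.

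Mt2 and Mt1, metallothioneins that bind zinc and copper, had medians of 70.9 and 406 TPM in rich cells and 136 and 543 TPM in poor cells. The pairs in which the rich cell was higher came to 44.3% and 42.1%, and within the short-total cells the log2 difference of Mt2 was 0.63. Prss3, a trypsinogen of a multi-copy family, had 134 TPM in rich cells and 208 TPM in poor cells, with single poor cells up to 5890 TPM, and its relatives Gm5771 and Gm10334 had 35.7 and 47.5 TPM in rich cells and 49.3 and 61.4 TPM in poor cells. Txnip, a thioredoxin-binding protein induced by glucose, had 13.6 and 21.4 TPM, with a log2 difference of 0.056 within cells 1 to 48. The others among the 15 lowest differences were Slc38a5, Sostdc1, Igf1 and H1f0, between -0.31 and -0.36 on the log2 scale, below 1.5-fold.

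Other lists of stress and growth were mixed. Of 13 heat shock genes, 3 were higher (Hspe1, Hspb1 and Hspd1), 0 were lower, and the median was 0.45, but the median Spearman correlation with the ribosomal share was 0.15 over all cells and -0.16 in the middle cells. Hspd1, the mitochondrial chaperonin, had 6.32 TPM in rich cells and 3.57 TPM in poor cells, and Hspa8 61.1 and 40.7 TPM. Of 10 immediate-early genes, 1 was higher (Fos) and 1 lower (Dusp1, at 1.68 TPM in rich cells and 3.69 TPM in poor cells). Within cells 49 to 91 the log2 difference of Dusp1 was 1.26. Of 7 genes of the integrated stress response, 2 were higher, 0 were lower, and the median was 0.30. The median Spearman correlation of this list with the ribosomal share was -0.059 over all cells and -0.062 in the middle cells. Atf4, the transcription factor of this response, had 27.01 TPM in rich cells and 17.4 TPM in poor cells, while its target Asns had 55.6 and 54.9 TPM. Within the short-total cells the log2 difference of Atf4 was -0.23. Nupr1, a stress-induced chromatin protein, had 729 and 742 TPM.

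For proliferation, 31 genes were listed and 6 passed the filter. Of these, 2 were higher (Tyms, which makes thymidylate, and Cks1b, a cofactor of cell cycle kinases), above the 7.08% of the background, 0 were lower, and the median was 0.49. The excess of this list over the background was 0.32, and it was -0.035 with cells ranked by the share outside the enzymes. For interferon response and MHC class I, 2 of 8 were higher (Ifitm3 and B2m), 0 were lower, and the median was 0.28, and B2m, the light chain of MHC class I, had 9.62 TPM in rich cells and 4.76 TPM in poor cells. Of 16 antioxidant genes, 0 were higher, 1 was lower (Mt2), and the median was 0.22. For autophagy and lysosome (21 tested), amino acid synthesis and transport (22), cholesterol and lipid synthesis (6) and cytoskeleton and junctions (17), 0 genes passed 1.5-fold in either direction, and the medians were 0.11, 0.06, 0.00 and 0.15. Gatm, which makes the creatine precursor and is abundant in acinar cells, had 72.4 TPM in rich cells and 83.5 TPM in poor cells, and Actb 61.9 and 59.6 TPM. The nuclear noncoding RNA Malat1 had 400.01 and 387 TPM, and Neat1 5.33 and 7.37 TPM.

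The choice of the ranking itself changed which cells were compared. Ranked by the ribosomal share of the TPM outside the digestive enzymes, 16 of the 27 rich and 19 of the 27 poor cells were the same. On that ranking the TOP mRNAs outside the family had a median log2 difference of 0.38, against a background of 0.05, and 71.2% of the calls outside the family were higher. Without cells 31 and 40, the 2 rich cells that carried the transcripts of dividing cells, the median of the TOP mRNAs was 0.63. Over all 19 other settings tried, the excess of the TOP mRNAs over the background lay between 0.33 and 0.60, and that of the ribosomal protein genes between 0.51 and 0.77. The settings that changed only the filter of genes repeat the reported values here, because these medians were kept on the same genes.

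**Figure D4:**
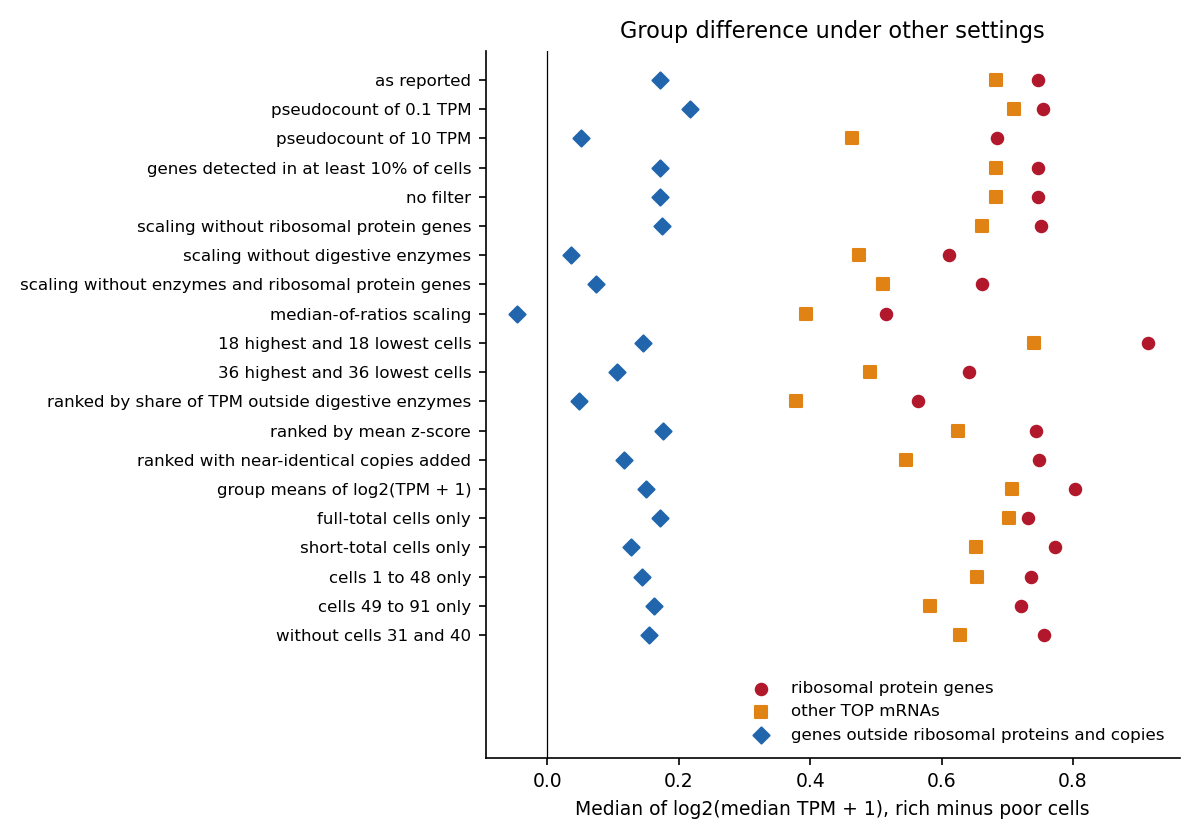
Median difference of log2(median TPM + 1) between rich and poor cells (x axis) for the ribosomal protein genes, for the other TOP mRNAs and for all tested genes outside ribosomal proteins and copies, as reported and under 19 other settings (y axis). The background median moves between -0.05 and 0.22, and the TOP mRNAs lie above it by 0.33 to 0.60 in every setting shown. The settings that changed only the filter of genes repeat the reported values.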

How the data were processed

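The authors deposited TPM for 45195 Ensembl genes in 108 single cells. The unit was read from the sums, near 1000000 in 87 cells and lower in 21. Per the submitters' processing notes, the tools were STAR 2.4.2a, RSEM 1.2.21 and edgeR and the build mm10, without role or order. Depth in reads cannot be had from TPM and is unknown, and levels of near-identical genes are uncertain. Symbols and transcript lengths came from GENCODE M21. Copies of ribosomal protein genes were found with BLAST 2.17.0 (at least 85% identity over at least 100 bases and 50% of the transcript). Genes at or above 1 TPM in at least 54 cells were tested for size (3730 genes), on log2(median TPM + 1), with 1.5-fold as the threshold. In pairs of cells, a tie counted 0.5. The functions were tested on simulated data. No doublet caller was run, no cell was left out, and 0 pairs of cells held identical values. Spike-in RNA, added to 24 cells per the labels' protocols, was not used here.

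The groups, the lists and the rule for naming genes were chosen with earlier results of these data known. Named genes were the 15 highest and 15 lowest differences and the 10 highest and 5 lowest correlations among genes with a median of at least 10 TPM outside the family, the 3 markers, the ribosomal protein genes at both ends, and members of each list by mean level or by difference. Of 144 genes these criteria gave, 96 are named in the results, picked with their values known. The log2 differences of all 144 were recomputed under the other settings, except those that changed only the filter of genes. Genes named from a list without these criteria, among them Tff2 in the middle cells, Eef2, Npm1, Nop53, Ybx1, Tmem97, Eif4ebp1, Myc and Hspd1, and all 14 genes past 90% of pairs, were chosen after their values were seen. A few genes that met a criterion are not reported here. RefSeq starts (GRCm38.p6) were matched by symbol.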

Additional observations from a re-analysis of the deposited data

How the results depend on the processing

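The numbers of genes past 1.5-fold were recomputed under 19 other settings. List medians and the log2 differences of named genes were recomputed under the same settings, except those that changed only the filter of genes. Shares of pairs, length bins and marker sums were not recomputed. The numbers of genes higher and lower in rich cells by at least 1.5-fold moved most. Over all tested genes, which include the ribosomal protein genes that set the ranking, 357 (9.57%) were higher and 27 (0.724%) lower. The shares of tested genes higher and lower were 16.5% and 1.77% with a pseudocount of 0.1 TPM, 2.76% and 0.107% with 10 TPM, 4.69% and 1.23% with the total taken without enzymes, and 2.55% and 2.06% with median-of-ratios scaling. They were 4.26% and 1.18% ranked by the share outside the enzymes, 5.23% and 0.429% with 36 cells a group, and 20.8% and 9.97% within the short-total cells (5 rich, 6 poor). The higher share was 5.84% without enzymes and ribosomal protein genes. The lower share was 3.14% within cells 1 to 48, 2.49% within cells 49 to 91, 1.74% with 18 cells a group and 0.268% with group means of logs. The number lower was 53 both with genes detected in at least 10% of cells (0.733%) and without a filter (0.265%), where more genes were counted. Over the 3616 genes outside the family and its copies, with 256 higher and 27 lower, the higher count lay between 21 (pseudocount of 10 TPM) and 682 (short-total cells), and the lower count between 4 and 370 under the same settings. The cause was not tested where a value moved.

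With median-of-ratios scaling the medians of lists were -0.30 for acinar markers, -0.17 for autophagy, -0.42 for carboxypeptidases and amylases, -0.28 for granule proteins, -0.32 for lipases, 0.39 for TOP mRNAs, 0.070 for the respiratory chain, 0.52 for ribosomal protein genes, 0.15 for elongation factors and 0.052 for initiation factors. Lipases stood at 0.17 in short-total cells, TOP mRNAs at 0.46 with a pseudocount of 10 TPM, and initiation factors at 0.090 without enzymes. Ranked by the share outside the enzymes, TOP mRNAs stood at 0.38, the respiratory chain at 0.11 and ribosomal protein genes at 0.56. Ribosomal protein genes stood at 0.91 with 18 cells a group.

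Some single genes changed direction, among them genes that met the naming criteria but are not described above. Fos gave -1.47 with 18 cells a group, -0.41 within cells 1 to 48, -0.36 within full-total cells, -0.19 with means, -0.22 ranked by z-score, -0.016 ranked with copies added (a setting chosen after seeing the data), -0.088 without enzymes and -0.097 without enzymes and ribosomal protein genes. Gm21738 gave -0.25 with 18 cells a group. Within cells 1 to 48, Snord118 gave -0.14, Rps12 -0.18, Syvn1 -0.35, Txnip 0.056 and Reg3a 2.03. Within cells 49 to 91, Gm21738 gave -0.051, Dpm3 -0.084, Reg3d 0.029 and Dusp1 1.26. Within short-total cells, Prss1 gave -0.042, Atf4 -0.23, Psmc6 -0.32, Syvn1 -0.16, Rps12 -1.22, Reg3d 0.23, Mt2 0.63 and Reg3b 1.29. Ranked by the share outside the enzymes, Dpm3 gave -0.060, Nop53 -0.097, Nop58 -0.13, Nr0b2 -0.17, Uqcr10 -0.11, Cks1b -0.013 and Eif2b2 -0.015.

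No paired analysis was possible because the cells form 1 group with no replicates. The read depth of each cell is unknown, so detection of genes near 1 TPM could not be compared at a common depth, and a lower level per cell cannot be told apart from lost transcripts.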
